A study of Mus musculus with 27 samples.

Results

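Endothelial cells line the inner surface of blood vessels and are the first cells that circulating lipoproteins meet. The comparison described here was that of mouse endothelial cells labelled as treated with chylomicrons against control endothelial cells, read across pathways and gene families of the whole transcriptome. Its members were the 15595 genes, of 55291 in the deposited table, whose normalized count averaged at least 10 over the 6 libraries of both groups, and those 6 libraries were a part of the 27 of the series. Each group held 3 libraries of polyadenylated RNA. The labels gave no genotype, strain, dose, time, vehicle or cell line for these libraries, although the extraction protocol shared by all samples of the series spoke of murine lines named PL and PLA, and nothing stated whether replicates came from separate cultures. The p-values below therefore measure the spread between libraries, which may be technical. The remaining libraries of the series were of endothelial cells with SRBI knockdown, of peritoneal macrophages and of small RNA in endothelial cell medium, and were not used here.

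Chylomicrons are the large, triglyceride-rich particles in which the intestine exports dietary fat. At the vessel wall, lipases on the endothelial surface release fatty acids from them, and receptors such as the scavenger receptor SR-BI bind lipoproteins. Endothelial cells respond to many stimuli by switching on NF-kB, a transcription factor held in the cytoplasm by inhibitor proteins until these are degraded, and their resting state is maintained by Notch, BMP and Wnt signals, by contacts between cells and by the basement membrane. Against this background the transcripts were read by family: cell division, protein synthesis and energy, defence and iron, vessel signalling and matrix, lipid and intermediary metabolism, and receptors and transporters.

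Each library held between 40046820 and 46700757 recovered reads. Most of the endothelial markers fixed for the label check were measured: the normalized counts of Pecam1 ranged from 6252 to 8532, of Cdh5, the junctional cadherin of endothelium, from 10752 to 16744, and of Eng, a coreceptor for BMP ligands, from 17336 to 27628. Kdr, the main receptor for vascular endothelial growth factor, was low at 54.0 to 129, and Cldn5, a tight junction gene of endothelium, was under the minimum in every library (0 to 8.001). Stromal transcripts were abundant beside them in both groups. Col3a1 had the highest normalized counts of all genes, and Pdgfra (31895 to 42311), Dcn (31226 to 41009.7) and Lum (6942 to 8721) were high, whereas Col1a2 was at 2.09 to 39.6. The summed level of the 14 measured fibroblast and mural markers was 671845 to 766918 normalized counts with chylomicrons and 765680 to 871193 in controls, and that of 5 of 16 macrophage and leukocyte markers was 248 to 387 against 436 to 496. The leukocyte genes Ptprc, Adgre1, Laptm5 and the C1q genes were at 0 to 6.26 in every library, and none of 13 T, B and natural killer cell markers reached the minimum. In bulk RNA, fewer cells of a type and less RNA per cell cannot be told apart. Chylomicron replicate 2 stood apart in a principal component analysis, with a first component of -74.5 beside -4.91 to 30.9 in the other 5 libraries, and had the fewest genes above 0 (19069, against 21108 to 22929).

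Chylomicron-treated cells differed from controls in 1317 of the 15595 genes (8.45%), of which 805 rose (5.16%) and 512 fell (3.28%). These counts come from limma on log2 of the normalized count plus 1, with Benjamini-Hochberg adjustment over all genes and an adjusted p under 0.05, and all fold changes below, also those in parentheses after a gene, are log2 fold changes on that scale, which understates the change of low genes. In every gene that passed, the 3 libraries of one group lay wholly above or below those of the other, which was so for 24.7% of all genes tested. Most changes were small: the median size was 0.60 on the log2 scale among genes that rose and 0.55 among those that fell, and 137 and 75 genes changed at least 2-fold. Protein-coding genes passed more often (6.15% rose and 3.79% fell) than long noncoding RNA genes (1.54% and 2.06%), and among the 3119 genes of lowest mean level 1.12% rose and 0.449% fell. The count was 736 without control replicate 1, 804 without control replicate 2 and 1557 without chylomicron replicate 2. Unless an exception is given, each gene named below as having risen or fallen passed in all 16 alternative settings tried, 6 of which leave out 1 library.

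**Figure D1:**
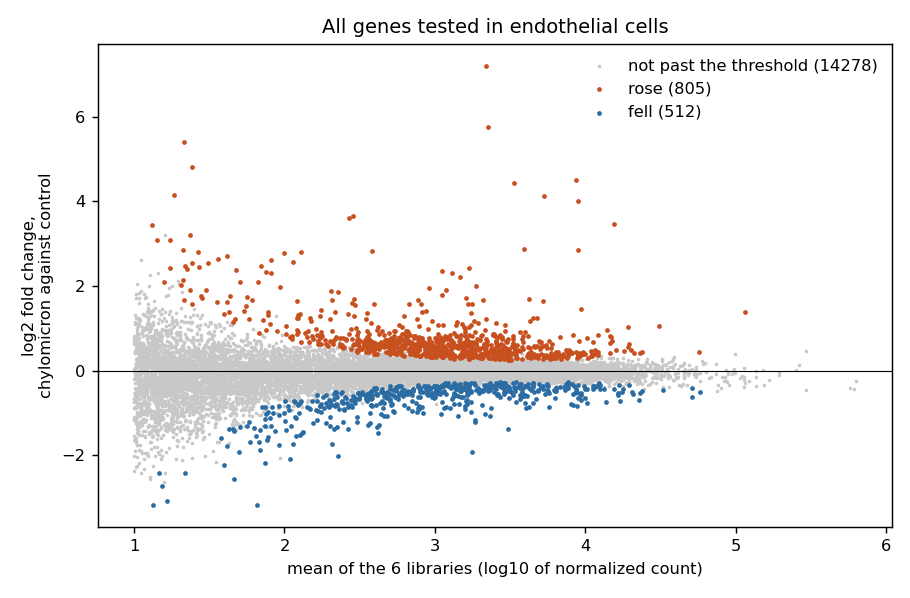
Each point is a gene tested, with the log10 of its mean normalized count over the 6 libraries on the horizontal axis and its log2 fold change, chylomicron against control, on the vertical axis. The 805 genes that rose and the 512 that fell lie over most of the range of levels, and few of the genes with a mean near the minimum of 10 passed.

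Outside the list of cytokine, chemokine, adhesion and acute-phase genes, which also holds complement C3, the 10 highest changes (taken at a mean of 100 or more) included 4 members of the Serpina3 family, secreted inhibitors of serine proteases that share a cluster on chromosome 12. Serpina3f had 564, 487 and 528 normalized counts with chylomicrons and 39.6, 49.7 and 35.0 in controls. Its log2 fold change was 3.65 (SE 0.18, adjusted p = 4.63e-08). Serpina3i had 502, 425 and 566 normalized counts with chylomicrons and 49.0, 44.2 and 28.7 in controls. For both, each treated library lay several times above each control, but these paralogs are near-identical in sequence, so how reads were split between them is uncertain. The same holds for Serpina3h (2.82) and for Serpina3n (chromosome 12, 104406646 to 104414334), which rose from 739 ± 45.3 to 2989 ± 362 normalized counts (SD, n = 3), a log2 fold change of 2.01. Clca3a2, a member of the calcium-activated chloride channel regulator family, had 7296, 6289 and 7096 normalized counts with chylomicrons and 845, 1011 and 987 in controls. All 3 treated libraries lay far above the controls, and the log2 fold change was 2.86 (SE 0.09, adjusted p = 7.48e-10).

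The other 5 of the 10 highest were genes of immune signalling and secretion. Tnfrsf9, which encodes the costimulatory TNF receptor 4-1BB, had 185, 234.02 and 261 normalized counts with chylomicrons and 30.2, 38.7 and 25.5 in controls and a log2 fold change of 2.82. Nod2, an intracellular sensor of bacterial cell wall fragments, had 232, 169 and 181 normalized counts with chylomicrons and 27.1, 42.3 and 27.6 in controls (2.57). Icosl, the ligand of the T cell costimulator ICOS, had 2203, 2060.2 and 2167 normalized counts with chylomicrons and 417, 440.0 and 443 in controls, so the treated libraries were close together and far above the controls (2.30, SE 0.09). Lgi2, of the leucine-rich glioma-inactivated family of secreted proteins, rose by 1.96 and Neurl3, a ubiquitin ligase of the neuralized family, by 1.90 (chromosome 1, 36264602 to 36274674).

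The lowest changes were of another kind. Angpt2, which antagonises the stabilising angiopoietin signal on the receptor Tie2 (chromosome 8, 18690263 to 18741562), had 606, 813 and 800.0 normalized counts with chylomicrons and 2718, 2590.4 and 3015 in controls, with a log2 fold change of -1.92 (SE 0.12, adjusted p = 3.81e-07). All 3 treated libraries lay far below the lowest control. Aqp8, a water and hydrogen peroxide channel, had 26.7, 50.01 and 48.5 normalized counts with chylomicrons and 150.2, 191 and 187 in controls (-2.09), and Fmo2, a flavin monooxygenase, had 74.97, 103 and 91.5 normalized counts with chylomicrons and 396, 365 and 332 in controls (-2.02). Gkn3, a gastrokine gene known as a marker of arterial endothelium in mouse brain, fell by 1.74 on the log2 scale, and Slc25a34, a mitochondrial carrier, fell by 1.72. Rspo2, a secreted amplifier of Wnt signalling, had 71.9, 50.01 and 90.6 normalized counts with chylomicrons and 171, 194 and 211 in controls (-1.46). Lmcd1 (-1.53) and Smtnl2 (-1.47), named for LIM and smoothelin domains, also fell, as did Rai2 (-1.45), whose call was lost in the fit with no trend in the prior.

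**Figure D2:**
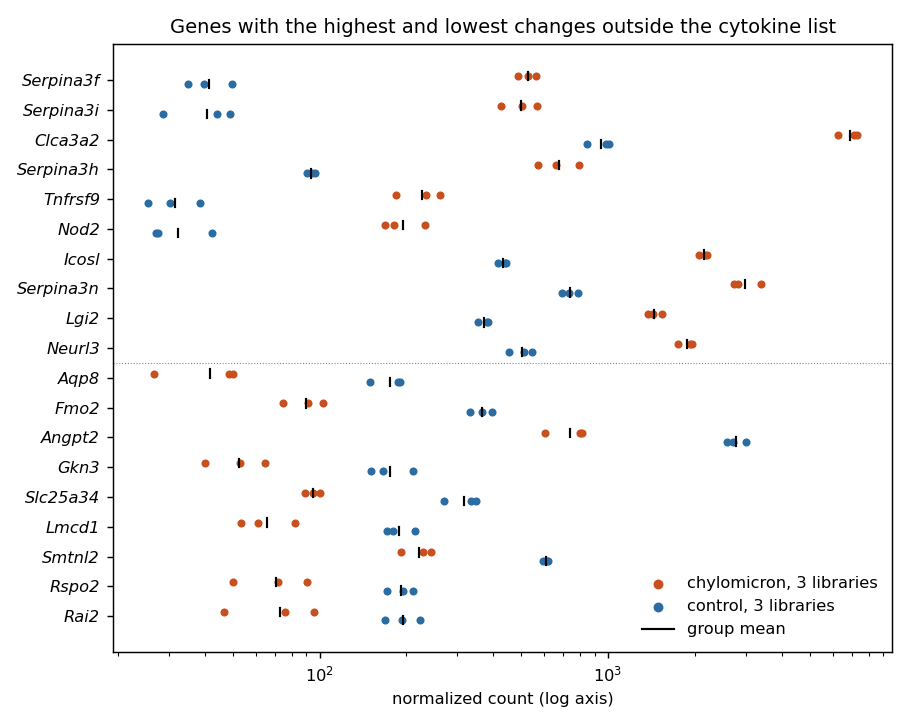
Normalized counts on a log axis of the 10 genes with the highest and 9 of the 10 with the lowest log2 fold changes outside the cytokine list, taken at a mean of 100 or more. Points are the 3 libraries of each group and black lines the group means, and no treated library overlaps a control library in any of the genes.

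Cell division genes rose together in large number. Cells that replicate DNA first load the MCM helicase at origins, then copy the genome with polymerases fed by nucleotide synthesis, and in mitosis separate it with kinesins, condensins and the kinetochore. Of 273 genes tested in 8 lists covering these steps, 143 rose (52.4%, beside 5.16% of all genes), which is 17.8% of all genes that rose, and 1 fell. At an unadjusted p under 0.05, 174 were higher and 7 lower. The median log2 fold change was 0.45, beside -0.02 over all genes tested. The number that rose was 109 without control replicate 1 and 83 when the empirical Bayes prior had no trend.

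At the replication origin, 16 of 27 genes rose. Mcm5, a subunit of the helicase (chromosome 8, 75109468 to 75128439), had 2489, 2882 and 2591 normalized counts with chylomicrons and 1288, 1493 and 1674 in controls (0.84 on the log2 scale, SE 0.10, adjusted p = 2.25e-04). The subunit genes Mcm3 (0.69) and Mcm6 (0.59) rose too. Of 26 polymerase, clamp and ligase genes 14 rose, among them Pole (0.74), the catalytic subunit of polymerase epsilon, Lig1 (0.63), which joins Okazaki fragments, and Chaf1b (0.68), a subunit of the assembly factor that places histones on new DNA. Of 32 nucleotide synthesis genes 11 rose. Rrm2, the regulated subunit of ribonucleotide reductase, had 2159, 2566 and 2542 normalized counts with chylomicrons and 1186, 1287 and 1387 in controls (0.91), and Ctps (0.81), which makes CTP, and thymidine kinase Tk1 (0.76) rose as well. In the polymerase list the number that rose was 8 without control replicate 1 or control replicate 2 and 6 with no trend in the prior. In the nucleotide list the number that rose was 7 without control replicate 1 and 6 with no trend in the prior.

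Recombination and Fanconi genes, which repair stalled forks and crosslinks, rose in 21 of 38 cases with a median of 0.51. Exo1, an exonuclease of end resection, had 399, 390.0 and 406 normalized counts with chylomicrons and 224, 198 and 176 in controls (1.00), Fanca (0.86) belongs to the Fanconi core complex, and Clspn (0.84) encodes claspin, an adaptor of the replication checkpoint. The maintenance methylation factor Uhrf1 rose by 0.83.

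In mitosis, 40 of 47 spindle, kinetochore and checkpoint genes rose, with a median log2 fold change of 0.67. Prc1, which bundles the microtubules of the central spindle, had 4526, 4952 and 4739.7 normalized counts with chylomicrons and 2706, 2647 and 3074 in controls (0.76, SE 0.08). Cenpi (0.86), of the inner kinetochore, and the centrosomal kinase gene Nek2 (0.78) rose too. Of 37 kinesin genes 13 rose, led by smallest p by the mitotic motors Kif23 (0.83), Kif11 (0.75) and Kif15 (0.69), and 24 had a positive fold change. Kif11, the motor that pushes the spindle poles apart, had 3407, 3360.3 and 3729 normalized counts with chylomicrons and 2125, 1952 and 2183 in controls, and no treated library overlapped a control. Among cohesin and condensin genes 9 of 21 rose, and the condensin genes Ncapg (0.89), Smc2 (0.79) and Ncapg2 (0.62) had the smallest p-values. Of 45 genes of cyclins, their kinases, inhibitors and transcription factors 19 rose. They included Ccna2 (0.76), the cyclin of S phase and mitotic entry, Foxm1 (0.70), the forkhead factor of mitotic genes, and the pocket protein gene Rbl1 (0.80). Tfdp2, a partner of E2F factors, was the 1 member that fell (-0.35, adjusted p = 0.0136), a call that was lost in the fit with no trend in the prior and fits without control replicate 1 or 2 or 3. With no trend in the empirical Bayes prior, 23 spindle genes, 6 kinesin genes and 10 cyclin genes rose.

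For the spindle and MCM lists the median was higher in each treated library than in each control. The median of the spindle list relative to the control mean was 0.63, 0.62 and 0.76 on the log2 scale in chylomicron replicates 1, 2 and 3, against -0.07, -0.07 and 0.15 in the controls, and that of the MCM list was 0.45, 0.48 and 0.57 against -0.03, -0.01 and 0.07. Histone genes and p53 targets also belong to the division cycle and its arrest. Of 26 histone genes 1 rose (3.85%, beside 5.16% of all genes), H2ax (0.54), which encodes the variant phosphorylated at DNA breaks. Most replication-dependent histone transcripts lack the poly(A) tail by which these libraries were selected. Of 30 p53 targets 3 rose (10.0%), among them the death receptor gene Fas (0.69), and 1 fell (3.33%, beside 3.28% of all genes), the desmosome gene Perp (-0.996). The call of H2ax was lost in the fit with no trend in the prior, the fit without chylomicron replicate 2 and control replicate 1 together and the fit without control replicate 2, that of Fas in the fit with no trend in the prior and that of Perp in fits without control replicate 1 or 2.

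**Figure D3:**
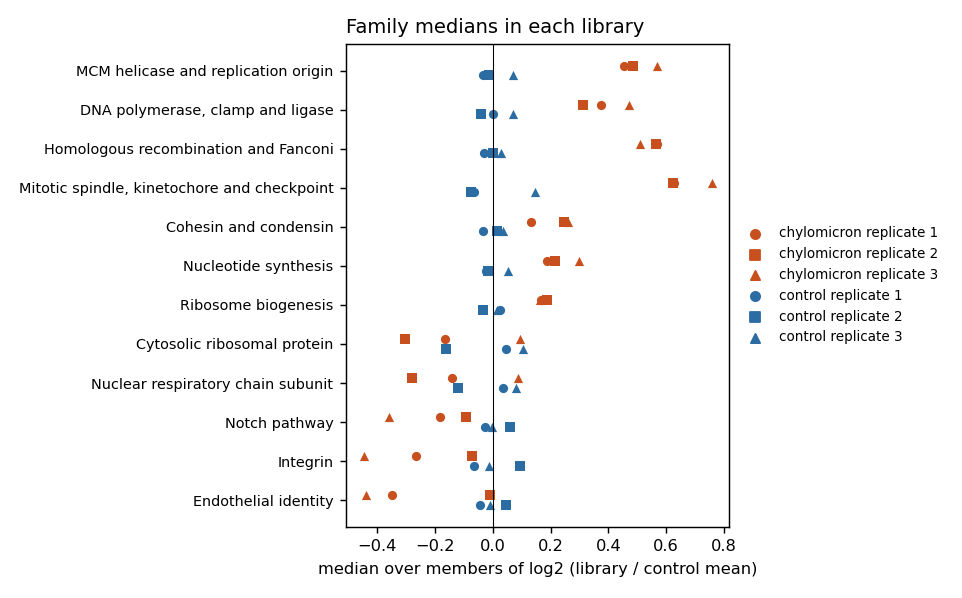
The median over list members of the log2 ratio of a library to the mean of the controls, for 12 gene families, with 1 point per library (circle, square and triangle for replicates 1, 2 and 3). The treated libraries lie above all controls in the division families, the groups overlap for ribosomal and respiratory chain genes, and chylomicron replicate 2 lies nearest to the controls in the Notch, integrin and endothelial identity lists.

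The promoters of these genes are shown because their members moved together. The RefSeq promoter table (GRCm38.p6, 250 bases before to 50 after a gene's start) held a single promoter for 8645 of the 15595 genes. The start is the one the table gives, which for a gene with several transcripts need not be the end of the gene's whole span. The core of the cell cycle homology region, TTTGAA, is the element bound by the complexes that time mitotic transcription, and it was present on either strand in 69.4% of the 49 promoters of spindle, kinesin, cohesin and condensin list genes that rose, in 16.0% of the 25 of those lists that did not rise and in 11.9% of all 8645. The E2F motif searched, TTTNNCGC, was in 38.3% of the 47 promoters of replication, nucleotide and recombination genes that rose and in 9.01% of all. The CCAAT box, CCAAT, was in 65.3% of the promoters of the spindle, kinesin, cohesin and condensin list genes that rose and 52% of the 25 that did not rise. It was in 59.6% of the promoters of the replication, nucleotide and recombination genes that rose and in 39.4% of all. The share that rose was 85.1% in the spindle list, 35.1% among kinesin genes and 42.9% among cohesin and condensin genes. Members that rose and members that did not therefore differ in makeup as well. For the E2F and NF-kB motifs no share was computed for list members that did not rise. A match is a description of the letters and no evidence of a bound factor. Of the genes named above, Kif23 and Kif11 are given as examples that hold a CCAAT box and the TTTGAA core, and Mcm3 and Mcm5 as examples that hold CCAAT boxes and E2F motifs, each as 300 bases read 5′ to 3′ along the gene's strand with these matches, on either strand, in capitals. The E2F matches of Mcm5 overlap each other.
Kif23 (chr9:61946750-61947049, minus strand): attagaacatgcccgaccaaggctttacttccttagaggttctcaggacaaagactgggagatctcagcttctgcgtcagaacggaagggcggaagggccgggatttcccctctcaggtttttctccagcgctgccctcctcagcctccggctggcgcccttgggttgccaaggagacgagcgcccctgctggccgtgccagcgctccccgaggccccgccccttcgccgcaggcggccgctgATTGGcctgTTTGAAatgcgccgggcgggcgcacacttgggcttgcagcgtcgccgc
Kif11 (chr19:37376132-37376431, plus strand): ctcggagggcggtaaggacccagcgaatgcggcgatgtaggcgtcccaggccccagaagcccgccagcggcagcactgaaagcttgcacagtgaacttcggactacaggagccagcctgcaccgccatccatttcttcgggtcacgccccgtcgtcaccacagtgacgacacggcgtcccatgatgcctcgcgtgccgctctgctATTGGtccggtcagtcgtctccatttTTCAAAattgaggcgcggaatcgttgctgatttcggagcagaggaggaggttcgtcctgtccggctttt
Mcm3 (chr1:20820263-20820562, minus strand): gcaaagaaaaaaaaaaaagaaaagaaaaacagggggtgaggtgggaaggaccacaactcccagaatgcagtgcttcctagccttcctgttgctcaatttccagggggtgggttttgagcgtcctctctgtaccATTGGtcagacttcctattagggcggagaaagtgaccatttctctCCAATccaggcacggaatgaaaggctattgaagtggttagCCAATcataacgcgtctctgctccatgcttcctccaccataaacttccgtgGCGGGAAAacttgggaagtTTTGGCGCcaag
Mcm5 (chr8:75109259-75109558, plus strand): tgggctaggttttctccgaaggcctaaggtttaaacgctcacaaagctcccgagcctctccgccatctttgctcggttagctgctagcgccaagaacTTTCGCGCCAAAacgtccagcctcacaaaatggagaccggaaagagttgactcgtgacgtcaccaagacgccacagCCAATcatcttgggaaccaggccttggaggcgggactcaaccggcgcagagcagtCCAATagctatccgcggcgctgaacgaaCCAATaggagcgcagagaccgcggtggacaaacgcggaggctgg

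**Figure D4:**
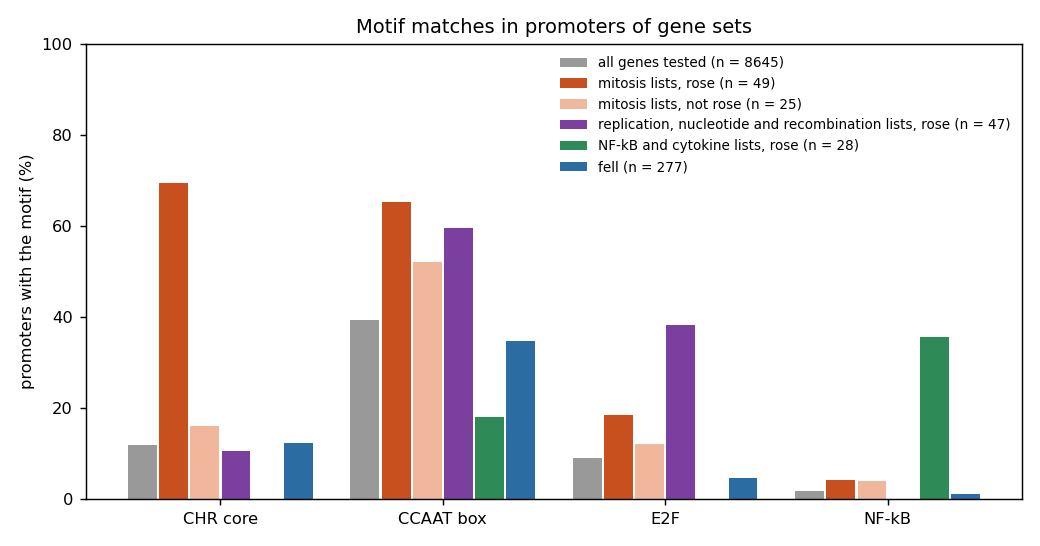
Percent of promoters that hold a motif on either strand, by gene set, for the cell cycle homology region (CHR) core, the CCAAT box, the E2F motif and the NF-kB motif. The CHR core was in 69.4% of the promoters of genes of the mitosis lists (spindle, kinesin, cohesin and condensin) that rose. The E2F motif was in 38.3% of those of replication list genes that rose and the NF-kB motif in 35.7% of those of NF-kB and cytokine genes that rose.

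Genes of protein synthesis, folding and respiration were read in several lists. Of 87 cytosolic ribosomal protein genes 0 passed by limma, edgeR or DESeq2, and 4 were lower at an unadjusted p under 0.05. Without chylomicron replicate 3 there were 2 that fell, and with a term for replicate number (the replicate block) 3 did. This list had 13 positive fold changes and a median log2 fold change of -0.13. The median of the list by library overlapped between the groups, at -0.30 to 0.09 with chylomicrons and -0.16 to 0.11 in controls. Of 80 nuclear genes of the respiratory chain 0 passed by limma, edgeR or DESeq2 and 7 were lower at an unadjusted p under 0.05. Of the 80, 11 had a positive fold change. The median was -0.10, and without chylomicron replicate 3 there were 4 that fell, and with the replicate block 2. None of 25 unfolded protein response genes passed by limma, edgeR or DESeq2, and 0 did so at an unadjusted p under 0.05. Of 71 initiation and elongation factor genes 0 passed by limma or edgeR and 1 rose by DESeq2, with 3 higher and 1 lower at an unadjusted p under 0.05. Without chylomicron replicate 2 there were 2 that rose and 1 that fell, and without chylomicron replicate 1 there was 1 that rose. With the replicate block 2 rose, and with limma sample weights 1 did. The 7 mitochondrially encoded transcripts had a median of -0.41 and 0 passed by limma, edgeR or DESeq2 or at an unadjusted p under 0.05. They varied between libraries: mt-Co1 had 427175, 218581 and 638887 normalized counts with chylomicrons and 1534023, 334449 and 274831 in controls, highest in control replicate 1, and 5 of the 7 rose when that library and chylomicron replicate 2 were left out together. Of 57 ribosome biogenesis genes 6 rose (10.5%, beside 5.16% of all genes), 54 had a positive fold change and 22 were higher at an unadjusted p under 0.05, and the number that rose was 1 without control replicate 1, 1 without control replicate 2 and 2 without control replicate 3. Ddx21, a nucleolar helicase, rose by 0.40, a call lost only in the fit without chylomicron replicate 2 and control replicate 1 together.

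NF-kB genes rose together with the genes that restrain NF-kB. Of 27 subunit and feedback inhibitor genes 16 rose, with a median of 0.37. Nfkbia, the inhibitor that is itself a classical target of NF-kB, had 6279, 6209 and 6795 normalized counts with chylomicrons and 2064, 1832 and 2098 in controls (1.69, SE 0.08). Zc3h12a, a ribonuclease that degrades cytokine transcripts, had 2754, 2428 and 2244 normalized counts with chylomicrons and 758, 771 and 732 in controls (1.71), and Tnfaip3, the ubiquitin-editing enzyme A20, rose by 1.37. The inhibitors of apoptosis Birc3 (1.16) and Birc2 (0.75), which signal from TNF receptors, rose, and of 31 immediate early genes 11 did, including Ier3 (1.18), Junb (1.07) and the mRNA-destabilising Zfp36 (0.85). Cebpb, a bZIP factor of the acute phase, had 843, 771 and 746 normalized counts with chylomicrons and 363, 359 and 386 in controls (1.09). Irf5 rose by 1.22.

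Genes for antigen processing and interferon-inducible GTPases rose. Of 16 genes of guanylate-binding proteins and immunity-related GTPases 9 rose, with a median of 0.72. Gbp5 had 327, 318 and 307 normalized counts with chylomicrons and 92.8, 101 and 104 in controls (1.67), and Gbp4 (1.30) and Gbp9 (0.86) followed, all members of a family of similar genes whose reads may be shared. Of 21 genes of MHC class I and peptide loading 9 rose. They included H2-Q4 (0.86), a class I gene with close paralogs, Erap1 (0.52), which trims peptides, and 3 subunits of the immunoproteasome, Psmb8 (0.65), Psmb10 (0.55) and Psmb9 (1.00). By limma those 3 were the only proteasome subunit genes of 46 tested that rose, and the call of Psmb9 was lost in the fit with no trend in the prior. Of 39 type I interferon genes 5 rose, beside 5.16% of all genes, with a median of 0.23. In that list the number that rose was 2 without chylomicron replicate 1 or control replicate 3, 11 without chylomicron replicate 2, 0 without control replicate 1 and 1 without control replicate 2.

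The NF-kB motif searched, GGG and TTTCC separated by any 2 bases, was in 35.7% of the 28 single promoters of NF-kB and cytokine list genes that rose, in 5.49% of the 510 of all genes that rose and in 1.67% of all 8645. Among genes that rose but were in none of the 8 division lists or the NF-kB and cytokine lists, it was in 4.26% of 376 promoters. Serpina3n and Neurl3 are shown as examples, among the genes with the highest changes, whose promoters hold the motif on either strand, with the match in capitals. They do not stand for the other genes with high changes. The table's start of Neurl3 lies inside the gene span given above, which covers several transcripts.
Serpina3n (chr12:104406458-104406757, plus strand): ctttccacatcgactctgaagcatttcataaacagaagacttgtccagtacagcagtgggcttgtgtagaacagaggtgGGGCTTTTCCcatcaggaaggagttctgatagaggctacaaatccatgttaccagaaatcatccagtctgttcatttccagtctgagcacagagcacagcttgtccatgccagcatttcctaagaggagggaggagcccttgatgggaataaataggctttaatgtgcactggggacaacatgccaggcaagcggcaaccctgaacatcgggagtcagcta
Neurl3 (chr1:36273376-36273675, minus strand): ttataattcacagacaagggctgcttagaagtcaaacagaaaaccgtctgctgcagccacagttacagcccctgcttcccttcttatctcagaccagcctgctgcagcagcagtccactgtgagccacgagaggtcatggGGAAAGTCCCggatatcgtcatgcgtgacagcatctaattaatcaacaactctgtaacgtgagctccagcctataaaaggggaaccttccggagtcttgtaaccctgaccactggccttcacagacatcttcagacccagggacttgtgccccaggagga

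Secreted protease inhibitors, iron genes and complement followed. Of 32 serpin and cystatin genes 10 rose. Beyond the Serpina3 cluster, Serpine2, an inhibitor of thrombin and urokinase known as protease nexin 1, had 2818, 2520.2 and 2619 normalized counts with chylomicrons and 1148, 1326 and 1143 in controls (1.14). Of 20 metallothionein and iron genes 8 rose, a list that includes the acute-phase genes Lcn2 and Steap4. Slc11a2, the divalent metal transporter DMT1, had 8397, 7694 and 7811 normalized counts with chylomicrons and 2353, 2673 and 2552 in controls, so the treated libraries held several times the control level (1.66, SE 0.08). In the iron list the number that rose was 4 without control replicate 1. Complement genes moved both ways, with 5 of 21 risen and 3 fallen, beside 5.16% and 3.28% of all genes. The central component C3 had 31345, 28789.8 and 24649 normalized counts with chylomicrons and 2259, 2919 and 2513 in controls (3.46). C1s1 (1.08), a protease of the classical pathway, and Cd55 (0.97), which speeds decay of the convertases, rose, while the collectin gene Colec11 (-0.54) fell.

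**Figure D5:**
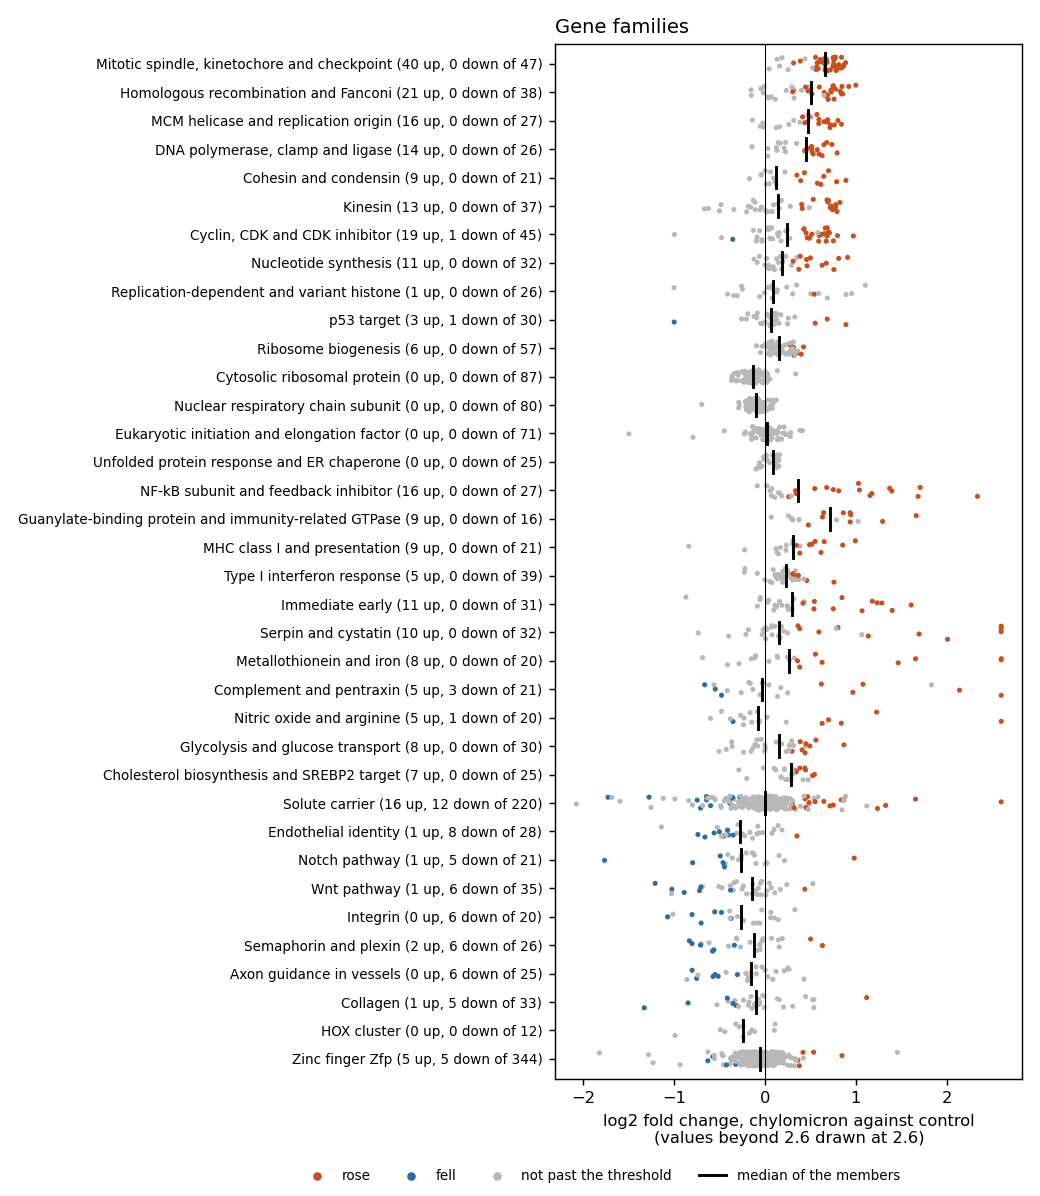
Log2 fold changes, chylomicron against control, of the members of 36 gene families, with genes that rose in orange, genes that fell in blue, others in grey and the median of each family as a black line. Values beyond 2.6 are drawn at 2.6, and the counts beside each name give the members that passed in each direction. The division and NF-kB families lie to the right, the Notch, integrin and endothelial identity families to the left, and the ribosomal, respiratory chain and Zfp families lie close to 0.

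Genes of the endothelial identity, Notch and Wnt lists fell more often than they rose. Other lists of vessel signalling were more even. In the angiopoietin and VEGF, BMP and SMAD, TGF-beta, and KLF and flow lists 2 genes rose and 3 fell, of 23, 23, 27 and 23 tested. Of 25 YAP and TEAD genes 2 rose and 2 fell, and of 20 caveolae and transcytosis genes 3 rose and 1 fell. Of 28 endothelial identity genes 8 fell and 1 rose, beside 3.28% and 5.16% of all genes, and the median was -0.27. The gene that rose was Podxl (0.35), the sialomucin podocalyxin, and its call was lost in the fit with no filter on low values, the fit with no trend in the prior, the fit without chylomicron replicate 2 and control replicate 1 together and fits without chylomicron replicate 1 or 2 or control replicate 1 or 2 or 3. Egfl7, a secreted protein of endothelium, had 7209, 7416 and 7170.0 normalized counts with chylomicrons and 11235, 10449.8 and 9211 in controls (-0.50), the hyaluronan receptor gene Lyve1 fell by 0.74 on the log2 scale, and Lmo2, a transcriptional adaptor, fell by 0.56. The calls of Egfl7, Lyve1 and Lmo2 were lost only in the fit with no trend in the prior, where 1 of the list fell. Among identity genes the number that fell was 4 without control replicate 1 and 3 without control replicate 2. The median of the list relative to the control mean was -0.35 and -0.44 in chylomicron replicates 1 and 3 but -0.01 in replicate 2, within the range of the controls (-0.04 to 0.05). Of the 28 identity genes 5 had a positive fold change, and 14 were lower and 1 higher at an unadjusted p under 0.05. Pecam1 (-0.09), a junctional adhesion molecule, and the VEGF receptor gene Flt1 (-0.06) did not pass. Both changed less than the median of the list and do not stand for it.

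Within the angiopoietin and VEGF list, Vegfc, a growth factor of lymphatic vessels, had 247, 178 and 192 normalized counts with chylomicrons and 72.0, 116 and 76.4 in controls (1.23), and Pgf, placental growth factor, rose by 1.17, both lost in the fit with no trend in the prior, while Angpt2 fell as described above. Of 21 Notch pathway genes 5 fell and 1 rose (23.8% and 4.76%, beside 3.28% and 5.16% of all genes). The ligand gene Dll1 had 1002, 1262 and 919 normalized counts with chylomicrons and 1864, 1929 and 1686 in controls (-0.79), Jag1, another ligand, fell by 0.44 and the target gene Heyl had a log2 fold change of -1.76, the last call lost in the fit with no trend in the prior. Dtx4, a ubiquitin ligase of the Deltex family, rose by 0.98. In the Notch list the number that fell was 3 without control replicate 2 or control replicate 3 and 2 with no trend in the prior. Among BMP genes the ID factor genes Id1 and Id2 moved in opposite directions. Id2 had 218, 264 and 265 normalized counts with chylomicrons and 652, 567 and 593 in controls (-1.28, SE 0.12), whereas Id1 rose by 0.62, and the BMP antagonist gene Grem1 rose by 0.62. Of 35 Wnt pathway genes 6 fell (17.1%, beside 3.28% of all genes), among them the inhibitor genes Dkk2 (-0.89), Sfrp1 (-1.02) and Apcdd1 (-0.70). The inhibitor gene Nkd2 rose (0.44), a call lost in the fit with no filter on low values, the fit without chylomicron replicate 2 and control replicate 1 together and fits without chylomicron replicate 1 or 3 or control replicate 1 or 2 or 3. Sfrp1 had 274, 334 and 258 normalized counts with chylomicrons and 505, 647 and 609 in controls, and the groups did not overlap.

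Among integrin and guidance genes more fell than rose. Of 20 integrin genes 6 fell (30%, beside 3.28% of all genes). None rose by limma, edgeR or DESeq2, and 0 were higher at an unadjusted p under 0.05. The number that fell was 2 with no trend in the prior, and 4 without chylomicron replicate 1 or 3 or control replicate 2 or 3. Itgb5, the beta subunit of a vitronectin receptor, had 248.51, 381 and 267 normalized counts with chylomicrons and 665, 604 and 584 in controls (-1.07, SE 0.15), and Itga8, which pairs with beta 1, fell by 0.80. Of 25 guidance genes 6 fell (24%, beside 3.28% of all genes), including the netrin receptor gene Unc5c (-0.75) and the ephrin receptor gene Epha7 (-0.57). In the guidance list the number that fell was 3 without chylomicron replicate 1 or control replicate 3 and 2 without control replicate 2. Of 26 semaphorin and plexin genes 6 fell and 2 rose (23.1% and 7.69%, beside 3.28% and 5.16% of all genes). The receptor gene Plxnb1 was at -0.80 and the ligand gene Sema3c at 0.63. In the semaphorin list the number that fell was 3 without control replicate 1 or control replicate 2 and 2 with no trend in the prior. For semaphorins the number that rose was 1 without control replicate 1. At junctions, the arterial connexin gene Gja4 had 1292, 1962 and 1325 normalized counts with chylomicrons and 3001, 3257 and 3143 in controls (-1.06), and F11r, the junctional adhesion molecule A, rose by 0.49.

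Coagulation and vascular tone genes also moved. Of 23 coagulation and fibrinolysis genes 5 fell and 1 rose (21.7% and 4.35%, beside 3.28% and 5.16% of all genes). F13a1, the clot-crosslinking transglutaminase, fell by 0.79 and Procr, the endothelial protein C receptor that favours anticoagulation, had 4392, 4951 and 4782 normalized counts with chylomicrons and 7021, 6734 and 6656 in controls (-0.53). In the coagulation list the number that fell was 2 without control replicate 2 and 3 without control replicate 3. Of 20 nitric oxide and arginine genes 5 rose, and Ddah2 fell (-0.35), a call lost in the fit with no trend in the prior, the fit without chylomicron replicate 2 and control replicate 1 together and fits without chylomicron replicate 1 or control replicate 1 or 2 or 3. Gch1, which makes the first step toward the cofactor of nitric oxide synthases, had 467, 493 and 508 normalized counts with chylomicrons and 204, 216 and 204 in controls (1.23), and the arginine transporter gene Slc7a2 (0.84) rose. Without chylomicron replicate 2 and control replicate 1 together, 3 of the list rose. Ptgir, the prostacyclin receptor, rose by 1.31 and Ptgds, a prostaglandin D synthase, by 0.99.

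Matrix genes changed member by member. Of 33 collagen genes 5 fell and 1 rose (15.2% and 3.03%, beside 3.28% and 5.16% of all genes). Col12a1, a collagen that associates with fibrils, had 3668, 3188 and 3586 normalized counts with chylomicrons and 1386, 1625 and 1809.7 in controls (1.12), and Col13a1, a transmembrane collagen, had 112, 133 and 133.64 normalized counts with chylomicrons and 287, 367 and 301 in controls (-1.33). Among the most highly counted genes, collagens did not pass, with Col3a1 at -0.23 and the basement membrane gene Col4a1 at -0.02. In the collagen list the number that fell was 3 without chylomicron replicate 1 or chylomicron replicate 3 or control replicate 1 and 2 without control replicate 2 or control replicate 3. After rescaling to equal library totals 2 collagen genes fell, and with no trend in the prior 1 did. The laminin gene Lama4 rose by 0.56, and the proteoglycan gene Ogn fell by 1.01. Of 46 metalloproteinase and inhibitor genes 7 rose and 7 fell (15.2% each, beside 5.16% and 3.28% of all genes). The protease genes Adamts7 (1.57), whose product cleaves cartilage oligomeric matrix protein, and Adamts4 (1.11), an aggrecanase, rose, and Adam22 (-1.24) and Mmp16 (-0.50) fell. Adamts7 had 2946, 2747 and 2218 normalized counts with chylomicrons and 812, 986 and 850.2 in controls. Among these proteases and inhibitors the number that fell was 4 without control replicate 1 or control replicate 3 and 3 without control replicate 2. With no trend in the prior 3 of them rose and 2 fell. Of the cytoskeletal genes, Tubb3 (0.93) and Tuba1b (0.51) rose and Septin4 (-1.32) fell.

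Lipid genes moved in both directions. Of 25 genes of cholesterol synthesis 7 rose (28%, beside 5.16% of all genes) with a median of 0.29. Sqle, squalene epoxidase, had 6506, 7107 and 7294 normalized counts with chylomicrons and 4712, 4811 and 4988 in controls (0.53). For cholesterol synthesis the number that rose was 2 without control replicate 1, 3 without control replicate 2 and 1 with no trend in the prior. Genes of cholesterol efflux moved both ways. The oxysterol-forming Ch25h had 189, 157 and 160.2 normalized counts with chylomicrons and 60.5, 61.7 and 93.4 in controls (1.24), and the liver X receptor gene Nr1h3 had 579, 441 and 605 normalized counts with chylomicrons and 247, 264 and 317 in controls (0.96), while Apoe, a carrier of cholesterol, had 45982, 50334 and 46437 normalized counts with chylomicrons and 64173, 70851 and 68468 in controls (-0.51), a call lost in the fit with no filter on low values and fits without chylomicron replicate 1 or control replicate 2 or 3. Of 20 lipoprotein receptor and lipid uptake genes 2 rose and 2 fell (10% each, beside 5.16% and 3.28% of all genes), with a median of -0.08. The 2 that rose were the lipoprotein receptor genes Lrp8 (0.74) and Vldlr (0.54), and Apoe was among those that fell. Across the alternatives 2 of this list rose in each and 1 to 4 fell. Acsl5, which activates fatty acids, rose by 0.62. By limma 0 of 32 fatty acid oxidation and PPAR target genes rose and 2 fell (6.25%, beside 3.28% of all genes). Of 30 triglyceride, lipid droplet and lipolysis genes 1 rose and 3 fell (3.33% and 10%). Of 19 fatty acid synthesis, desaturase and elongase genes 0 rose by limma and 1 fell. Ucp2, a mitochondrial carrier, fell by 0.62 and the acyltransferase gene Agpat5 fell by 0.53. Scarb1, the gene of SR-BI (chromosome 5, 125277087 to 125341094), had 8905, 11725 and 9335 normalized counts with chylomicrons and 11107, 12469 and 12857 in controls, and its groups overlapped. Its log2 fold change was -0.29 (95% interval -0.53 to -0.05, adjusted p = 0.147), and it passed without chylomicron replicate 2.

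In intermediary metabolism, 8 of 30 genes of glycolysis and glucose transport rose. Slc16a3, the lactate exporter MCT4, had 523, 577 and 551 normalized counts with chylomicrons and 277, 339.7 and 288 in controls (0.87), and Hk2, which phosphorylates glucose, rose by 0.44. For glycolysis the number that rose was 5 without control replicate 1, 4 without control replicate 2 and 2 with no trend in the prior. The prolyl hydroxylase gene Egln3, a hypoxia-responsive gene, rose by 0.71, and Mthfd2, a mitochondrial enzyme of folate metabolism, by 0.68. In the oxidative enzymes of drug and retinoid metabolism 8 of 42 fell and 3 rose, beside 3.28% and 5.16% of all genes. Fmo2, described above, was the first of them by p. Among these enzymes the number that fell was 2 without control replicate 1 or control replicate 2 and 3 without control replicate 3. In the same list the number that rose was 0 without control replicate 1 and 1 without control replicate 3. Among conjugating enzymes Sult1a1 fell by 1.22, and Gstm5 (0.67) and Mgst1 (0.73) rose. Rarb, a retinoic acid receptor and target of retinoic acid, fell by 0.83.

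Receptors, channels and transporters gave some of the larger single changes. Of 46 genes of vascular G protein-coupled and purine receptors 5 rose and 6 fell, beside 5.16% and 3.28% of all genes. Htr2a, a serotonin receptor, had 308, 372 and 285 normalized counts with chylomicrons and 70.9, 89.3 and 98.7 in controls (1.89), and Ackr1, a chemokine-binding receptor of venules, had 1262, 1085 and 848 normalized counts with chylomicrons and 482, 445 and 418 in controls (1.23). The ATP-gated channel genes P2rx1 and P2rx2 moved in opposite directions: P2rx1 rose by 0.95, and P2rx2 had 12.3, 18.0 and 8.24 normalized counts with chylomicrons and 111, 123.35 and 121 in controls (-3.17). Ednrb, an endothelin receptor, fell by 0.86. Among these receptors the number that rose was 3 without control replicate 1. Rgs16, which shortens G protein signals, had 133, 132 and 145 normalized counts with chylomicrons and 27.1, 33.1 and 21.2 in controls (2.31). Among channels Kcnj2, an inward rectifier, rose by 1.12, and Cacna1c, the pore of the L-type calcium channel, had 109.9, 130.01 and 115 normalized counts with chylomicrons and 326, 316 and 277 in controls (-1.36).

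Of 220 solute carrier genes 16 rose and 12 fell (7.27% and 5.45%, beside 5.16% and 3.28% of all genes), with a median of 0.00. Slc45a4 rose by 1.24, and the inositol carrier gene Slc5a3 (-0.74) and the vesicular monoamine carrier gene Slc18a2 (-1.27) fell. Among solute carriers the number that fell was 7 without control replicate 1 and 6 without control replicate 2. With no trend in the prior 9 of them rose and 5 fell. The neuregulin gene Nrg1, of the epidermal growth factor family, had 7854, 7934 and 7157 normalized counts with chylomicrons and 11564, 13502 and 13595 in controls (-0.75). Cd82, a tetraspanin of membrane domains and vesicles, rose by 0.82. Among transcription factors outside NF-kB, the forkhead gene Foxs1 had 131, 161 and 155 normalized counts with chylomicrons and 38.6, 35.0 and 37.1 in controls (1.98), and Zfp608 fell by 0.57. Of 344 Zfp genes 5 rose and 5 fell (1.45% each, beside 5.16% and 3.28% of all genes). For Zfp genes the number that rose was 2 without control replicate 1 or control replicate 3 and 3 without control replicate 2. Among Zfp genes the number that fell was 10 without chylomicron replicate 2, 1 without control replicate 1 and 2 without control replicate 2 or control replicate 3. Of 12 HOX genes 0 passed by limma, edgeR or DESeq2, and 1 was lower at an unadjusted p under 0.05.

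Markers of other cells moved in a few genes. Pf4, platelet factor 4, which is also made outside platelets, had 4061, 3417 and 4462 normalized counts with chylomicrons and 1933, 1647 and 2101 in controls (1.07), whereas Itga2b, the other platelet gene that passed, fell by 0.70, a call lost in the fit with no trend in the prior. Red cell transcripts averaged below the minimum for testing. The haemoglobin gene Hba-a1 was at 0 in all 3 treated libraries and at 7.30, 2.76 and 23.4 normalized counts in controls, so its reads came from the controls only. Hbb-bs was at 1.03, 2.00 and 0.915 with chylomicrons and 1.04, 0.921 and 8.49 in controls, and Hba-a2, a near-identical copy of Hba-a1 between which reads may be split, was at 0 in all 6 libraries. Of 14 fibroblast and mural markers 3 fell, beside 3.28% of all genes. They were the contractile genes Acta2 (-0.33) and Des (-0.86) and the mural Notch receptor gene Notch3 (-0.49), and 1 of them or none fell without control replicate 1, 2 or 3. After rescaling to equal library totals 1 of these markers fell. The part of a change in cell makeup in the results above was not tested.

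Tested genes whose symbol begins with at least 3 letters followed directly by a digit were grouped by those letters. This gave 330 families of at least 6 genes, holding 5217 genes. Symbols with shorter beginnings, such as those of interleukins (Il), were not grouped. In 167 of them no gene passed. In 16 at least 30% of the members rose, and in 2 at least 30% fell, beside 5.16% and 3.28% of all genes. The former included Cdca (5 of 7), genes of the cell division cycle, Gbp and Mcm (7 of 10 each), Cxcl chemokines (6 of 9), Tnfaip (4 of 6), Serpina (7 of 12), the beta tubulins Tubb (4 of 7) and the Slfn family (3 of 7). The latter were the integrin alpha genes, Itga (4 of 12), and the Wnt ligand genes (2 of 6). These families overlap the lists above and were counted on the same fit. In a family of 6 genes, such as the Wnt ligands, 2 genes are enough to reach 30%.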

How the data were processed

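Polyadenylated RNA was sequenced from 6 endothelial libraries, 3 per group. Per the labels' protocols a stranded mRNA kit was used, and the submitters' processing notes named STAR 2.7.3a, featureCounts and Subread 1.6.3 along with builds mm10 and GRCm38, but did not say what each did. The deposited signal was in normalized counts: dividing by 1 factor per library turned every nonzero value into whole reads (100% within 0.01 reads). The test was limma 3.58.1 (R 4.3.3) on log2 of the value plus 1, two-sided, with the group as its term and a trended empirical Bayes prior, over genes averaging 10 or more; it was checked on simulated data. On the recovered reads edgeR 4.0.16 and DESeq2 1.42.0 served as alternatives. Members, the 97 gene lists and the tests were chosen with earlier results of these data known. Named genes that passed had groups that did not overlap and were the 10 highest and 10 lowest changes with a mean of at least 100 outside the cytokine list, leaving out predicted gene models, up to 3 per list and direction by smallest p, and all of those where 5 or fewer passed; the 10 most highly counted genes and Scarb1 could be named whether or not they passed, and some genes so taken are not reported here. Cell type markers outside this rule were named for the label check. Gene positions and promoters are from RefSeq GRCm38.p6, in which 14197 symbols matched. Libraries had 40046820 to 46700757 reads, which carry no molecular identifiers, so precision rests on the spread between libraries.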

Additional observations from a re-analysis of the deposited data

How the results depend on the processing

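No gene that passed changed sign under any of the 16 alternatives. The number past the threshold was 587 (378 risen, 209 fallen) when the trend was left out of the empirical Bayes prior, where 547 of the 1317 genes remained, and 823 fell with limma sample weights. Leaving out 1 library gave 736 to 1557 genes past the threshold, 470 to 823 risen and 261 to 734 fallen. The lowest totals came without control replicate 1 (736, of which 470 rose and 266 fell), without control replicate 2 (804, with 261 fallen) and without control replicate 3 (899, with 297 fallen). With chylomicron replicate 2 and control replicate 1 both left out, an alternative added after the data were seen, 507 rose. edgeR gave 1301 and DESeq2 1608 genes. With the replicate block the count was 1581; same-numbered libraries had correlations of 0.17, -0.16 and 0.06, so the numbers were not taken to pair them. Of the counts by gene list under the alternatives, 572 moved by more than 1.5 times or to or from 0, and 2532 did not. The latter include counts that were 0 both in the main fit and in the alternative. Of the 3119 genes of lowest mean level 1.12% rose, and whether depth limits this share was not tested.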
